A study of Mus musculus with 12 samples.

Results

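The comparison described here is transverse aortic constriction (TAC) against sham surgery in the hearts of wild-type mice. Its members were chosen by group label and number 6 of the 12 samples of the series. There were 3 libraries of wild-type sham hearts, replicates 1, 2 and 3, and 3 of wild-type TAC hearts, replicates 1, 3 and 5, numbered as in the sample titles. The animals were male C57BL/6J mice without an engineered allele, 8 weeks old at surgery. In TAC a silk thread tied the transverse aorta down against a 27-gauge needle that was then withdrawn, and sham animals had the operation without the tie. The other 6 libraries come from Cd163-/- mice on the C57BL/6J background, 3 after sham and 3 after TAC, and enter only where named. The sources used here do not give the time from surgery to collection, the hour of collection, the part of the heart taken or the degree of constriction reached. Poly(A) RNA was sequenced, and read counts per gene were deposited.

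TAC narrows the aorta, so the left ventricle ejects against a raised pressure. Heart muscle cells answer such a load with growth and with a fetal and stress gene programme that includes natriuretic peptides, skeletal alpha-actin and stretch-responsive proteins. Fibroblasts lay down matrix proteins that bind, cross-link and remodel collagen, and macrophages and interferon-responsive cells take part in the inflammatory phase. Heart tissue also runs a circadian clock: the activators Arntl (Bmal1), Clock and Npas2 drive the Per, Cry and Nr1d repressors and output factors such as Dbp, which feed back on the activators, so that transcripts of both arms cycle over the day.

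Heart muscle genes were at high levels throughout, and 1 library of each group stood apart in places. All 15 heart muscle identity genes, such as the myosin heavy chain Myh6 and the titin gene Ttn, were expressed in every library, at 25.1 CPM or more. CPM here is the gene's count scaled to a common library size, with library totals corrected for composition by the TMM method. None of 6 lung epithelium markers and 1 of 6 thymus markers reached the count needed for a test. Total counts ran from 16671952 to 22400473 per library. WT TAC replicate 1 lay apart from the other TAC libraries. In a principal component analysis of the 1000 genes with the highest variance, it stood on the leading axis (57.6%) at 34.4, against 6.85 and 17.0 for TAC replicates 3 and 5 and -27.5 to -12.9 for the sham libraries. It had 2337 of 14915 genes over 2-fold from the sham mean, where TAC replicates 3 and 5 had 669 and 951. Transcripts of the mitochondrial genome made up 24.8% of its counts, 31.5 and 32.5% of those of TAC replicates 3 and 5 and 35.1 to 36.9% in sham (exact permutation p = 0.1, two-sided, the smallest that 3 against 3 allows). WT sham replicate 2 held atrial transcripts: Myl7, the light chain of atrial myosin, had 382 CPM in it, 9.05 and 28.2 CPM in sham replicates 1 and 3 and 0.39 to 3.11 CPM after TAC. The part of these differences in the results below was not tested beyond the values given with each library left out. The labels do not name the animal behind each library, so the p-values reflect the spread between libraries, which may be technical.

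With the 6 wild-type libraries, 58 genes rose and 31 fell after TAC, 0.597% of the 14915 genes tested (edgeR quasi-likelihood test, Benjamini-Hochberg adjusted p below 0.05, with 4 residual degrees of freedom). Clock genes had the most members called of any list described, followed by the matrix cross-linkers, proteases and inhibitors with 3 calls. The stress genes of heart muscle, the matricellular proteins and the p53 and apoptosis genes had 2 calls each. Over all genes tested, 0.389% were called higher and 0.208% lower, and 7749 of 14915 had positive fold changes. For all 89 called genes the sham and TAC libraries did not overlap, which also held for 27.9% of all genes tested. Scaling by library totals moved the median of all genes from 0.02 to 0.158 on the log2 scale and gave 42 higher and 9 lower calls. The calls depended on single libraries. Leaving out WT TAC replicate 1 gave 228 higher and 182 lower calls, and 86 of the 89 genes were among them. Leaving out TAC replicate 3 gave 254 calls in all and TAC replicate 5 gave 31. Leaving out sham replicate 1 gave 13 calls, and without sham replicate 2 or 3 the clock output gene Dbp was the 1 call made. So each other call named below ended without sham replicate 2 and without sham replicate 3. Of 52 called genes checked one by one, 10 passed without sham replicate 1, among them Acta1, Ciart, Dbp, Mt1, Per2, Ptgds, Serpinb1c, Spon2 and Timp1. Without TAC replicate 5, 17 passed, among them these genes other than Spon2, and Arntl, Ccl9, Fas, Per1, Per3, Soga1, Tcap and Tmem171. Without TAC replicate 3, 48 passed, and Hspb1, Retnla, Penk and Pcdhgb6 did not. With library totals 35 passed, and Adam19, Angptl4, Arntl, Cd209f, Mfap5, Retnla, Spon2 and Timp4 were among the 17 that did not. Fold changes of the 52 genes kept their direction throughout.

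**Figure D1:**
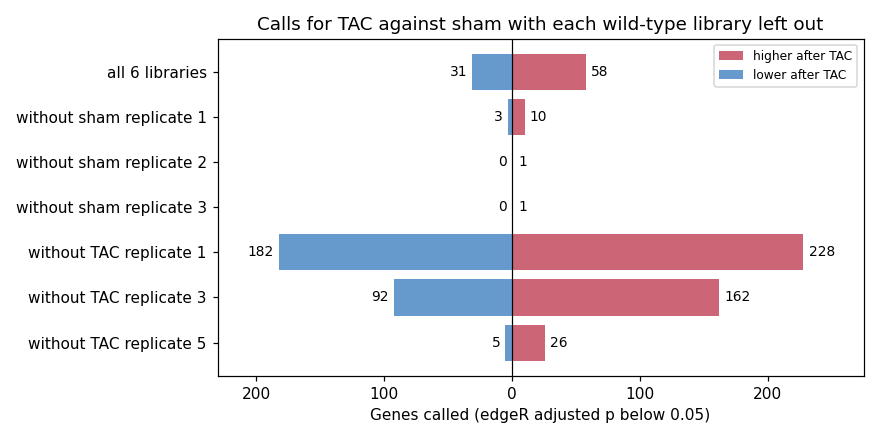
Number of genes called for TAC against sham (horizontal axis, higher to the right, lower to the left) in fits of all 6 wild-type libraries and with 1 library left out (rows). The fit of all 6 libraries called 58 higher and 31 lower genes, the fit without TAC replicate 1 called 228 and 182, and the fits without sham replicate 2 or 3 called 1 gene each.

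The circadian clock list held 10 of the 89 calls. Of its 19 members, all tested, 8 rose and 2 fell, where 0.389% of all genes were called higher and 0.208% lower. The output factors Dbp and Tef, the repressors Per1, Per2, Per3, Nr1d1 and Nr1d2, and Ciart, a repressor that dampens the clock, rose. Arntl, an activator, and Nfil3, a repressor that competes with Dbp and Tef for their sites, fell. These 10 genes were looked up in RefSeq promoter windows on GRCm38.p6, which run from 250 bases before to 50 bases after a gene's start, and 9 had a window. Both strands were searched for the E-box CACGTG, to which Arntl with Clock or Npas2 binds, the D-box TTATGTAA, bound by Dbp, Tef and Nfil3, and AGGTCA, the core of the RORE bound by Nr1d1 and Nr1d2. None of these motifs contains another. The E-box occurred in windows of 3 of the 7 risen genes with a window (Ciart, Per1 and Tef) and of 8.09% of 27025 genes with one, or 11.6% of the 10722 tested genes with one. Windows of both genes that fell held AGGTCA, as did those of 18.1% of the 27025 (14.9% of tested genes) and of the risen genes Nr1d2 and Per1. The D-box stood in the window of Per3, and in 1.11% of all (0.69% of tested genes). These matches describe the letters of a window and are not binding sites shown by these data. The windows follow 5′ to 3′ on the gene's strand with the matches to the motif named for each in capitals, since the clock list holds more calls than any other list described and its genes moved in both directions: Ciart on the minus strand at chr3:95882179-95882478, Per1 on the plus strand at chr11:69098699-69098998, Tef on the plus strand at chr15:81802423-81802722 (E-box), Per3 on the minus strand at chr4:151044616-151044915 (D-box), Arntl on the plus strand at chr7:113207261-113207560 and Nfil3 on the minus strand at chr13:52980990-52981289 (AGGTCA, in Nfil3 on the opposite strand, so printed as its reverse complement).
Ciart: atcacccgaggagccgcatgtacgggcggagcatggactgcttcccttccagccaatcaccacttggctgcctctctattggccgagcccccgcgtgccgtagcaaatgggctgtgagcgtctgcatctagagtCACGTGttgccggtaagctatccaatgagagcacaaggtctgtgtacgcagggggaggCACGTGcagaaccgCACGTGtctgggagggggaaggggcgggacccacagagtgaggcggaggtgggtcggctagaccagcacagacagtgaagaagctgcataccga
Per1: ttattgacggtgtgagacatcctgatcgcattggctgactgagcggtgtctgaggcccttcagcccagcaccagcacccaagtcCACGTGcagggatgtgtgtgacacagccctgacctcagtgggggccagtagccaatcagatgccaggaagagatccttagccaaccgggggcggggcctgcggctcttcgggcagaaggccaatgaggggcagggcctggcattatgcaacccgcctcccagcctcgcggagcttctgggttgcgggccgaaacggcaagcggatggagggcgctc
Tef: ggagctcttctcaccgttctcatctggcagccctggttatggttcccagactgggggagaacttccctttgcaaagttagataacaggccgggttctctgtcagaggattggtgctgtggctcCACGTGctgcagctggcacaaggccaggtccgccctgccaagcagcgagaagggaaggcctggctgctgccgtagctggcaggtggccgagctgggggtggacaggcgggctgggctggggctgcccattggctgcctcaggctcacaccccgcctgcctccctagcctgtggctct
Per3: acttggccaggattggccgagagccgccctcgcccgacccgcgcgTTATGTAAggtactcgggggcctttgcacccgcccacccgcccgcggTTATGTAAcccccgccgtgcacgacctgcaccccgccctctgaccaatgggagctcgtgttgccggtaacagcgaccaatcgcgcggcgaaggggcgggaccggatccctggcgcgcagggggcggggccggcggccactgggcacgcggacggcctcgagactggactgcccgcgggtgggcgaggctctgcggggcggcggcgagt
Arntl: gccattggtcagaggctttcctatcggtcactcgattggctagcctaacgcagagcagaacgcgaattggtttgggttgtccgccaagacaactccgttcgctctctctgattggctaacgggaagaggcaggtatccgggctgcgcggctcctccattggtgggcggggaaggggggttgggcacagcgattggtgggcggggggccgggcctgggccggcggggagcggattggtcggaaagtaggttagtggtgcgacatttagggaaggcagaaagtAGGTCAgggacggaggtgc
Nfil3: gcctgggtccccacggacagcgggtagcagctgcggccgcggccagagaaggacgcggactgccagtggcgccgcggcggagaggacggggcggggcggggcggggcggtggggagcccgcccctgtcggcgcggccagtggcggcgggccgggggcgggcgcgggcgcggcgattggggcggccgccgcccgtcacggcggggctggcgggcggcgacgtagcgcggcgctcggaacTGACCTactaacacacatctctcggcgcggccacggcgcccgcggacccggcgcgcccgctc

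Dbp (ENSMUSG00000059824), the D-box binding output factor, stood at 3.62, 3.71 and 5.24 CPM in sham replicates 1, 2 and 3 and at 64.8, 82.9 and 64.7 CPM in TAC replicates 1, 3 and 5, the order kept from here on. It rose 16.9-fold, from 4.19 ± 0.913 to 70.8 ± 10.5 CPM (SD, n = 3), with a log2 fold change of 4.08 ± 0.21 (SE) and an edgeR adjusted p of 0.000164. Every TAC library lay far above every sham library, and Dbp passed with each library left out, with adjusted p up to 0.00572. In the fit that shares its spread with the Cd163-/- libraries, 12 in all, Dbp was not called, and the 5 calls were Acta1, Enpp2, Mt1, Ptgds and Tnc. Per2 (ENSMUSG00000055866), a negative-arm protein, stood at 5.11, 5.003 and 6.05 CPM in sham and 24.7, 27.2 and 40.8 CPM in TAC libraries, a log2 fold change of 2.52 ± 0.22 (adjusted p = 0.00359, up to 0.0634 with a library left out). Per1 (ENSMUSG00000020893) and Per3 (ENSMUSG00000028957) had log2 fold changes of 1.80 and 1.48, and their groups did not overlap. Ciart (ENSMUSG00000038550) stood at 2.36 to 3.20 CPM in sham and 12.0 to 16.3 CPM in TAC libraries (log2 fold change 2.31 ± 0.20, adjusted p = 0.00359). The nuclear receptors Nr1d1 (ENSMUSG00000020889), at 24.5 to 29.5 and 58.4 to 105 CPM, and Nr1d2 (ENSMUSG00000021775), at 48.2 to 63.4 and 123 to 150 CPM, rose by 1.56 and 1.28 on the log2 scale.

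The activator Arntl (ENSMUSG00000055116) stood at 32.9, 32.2 and 28.1 CPM in sham and at 9.95, 7.30 and 3.85 CPM in TAC libraries. It fell 4.42-fold, with a log2 fold change of -2.14 ± 0.29 (edgeR adjusted p = 0.0212) and no overlap between the groups. Nfil3 (ENSMUSG00000056749) stood at 19.5, 20.6 and 20.2 CPM in sham and 4.49, 8.44 and 8.42 CPM in TAC libraries, a log2 fold change of -1.50 ± 0.23 (adjusted p = 0.0338). The partners Npas2 at -1.57 (adjusted p = 0.0630) and Clock at -0.72 (adjusted p = 0.0760), and the repressor Cry1 at -1.12 (adjusted p = 0.0630), missed the threshold with groups that did not overlap. All 3 passed without WT TAC replicate 1, Npas2 at -2.06 (adjusted p = 0.00116), Clock at -0.72 (0.0345) and Cry1 at -0.94 (0.0285). So did the repressors Bhlhe40 at 1.43 (0.000773) and Bhlhe41 at 1.13 (0.00191), at 1.15 and 0.96 with all libraries. Without that library the list had 10 members called higher and 5 lower, where 1.51% and 1.2% of all 15124 genes tested were called. Cry2 at 0.23, Hlf at 0.07 and Rora at -0.11 lay near 0. Since the hour of collection is not given, the surgery and a difference in hour between groups cannot be told apart.

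**Figure D2:**
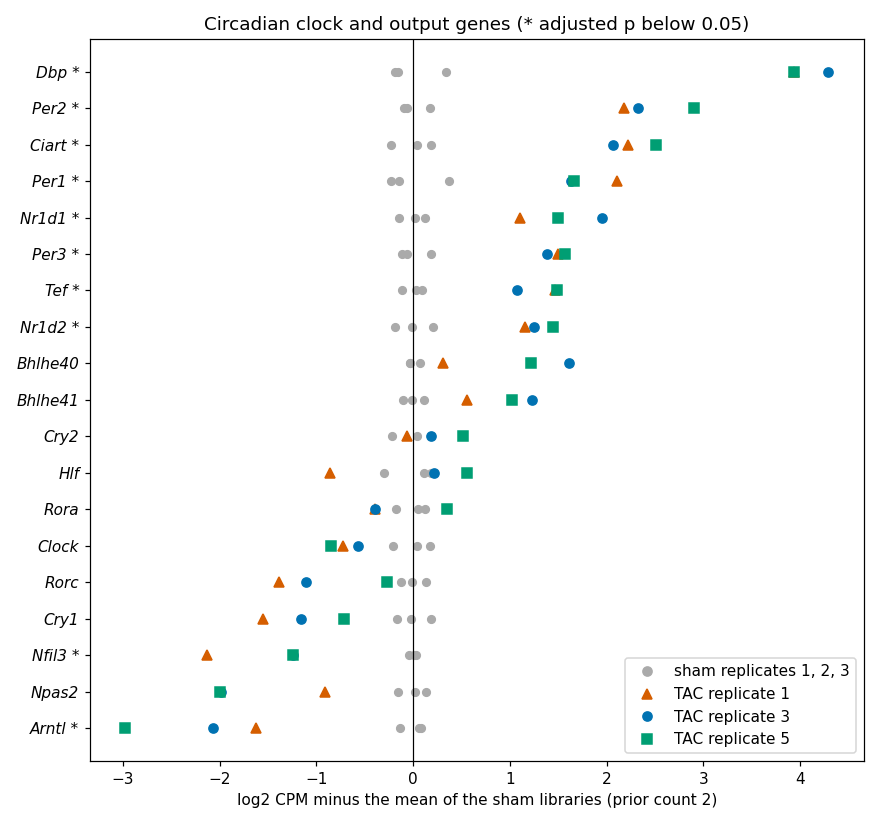
Log2 CPM of each of the 19 clock and output genes (rows) in each wild-type library, minus the mean of the sham libraries (horizontal axis). Grey points are sham libraries and coloured symbols TAC libraries; an asterisk marks an edgeR adjusted p below 0.05. For the 10 called genes, all 3 TAC symbols lie on the same side, clear of the grey points.

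Among genes of heart muscle stress, skeletal alpha-actin and B-type natriuretic peptide rose. Of the 16 members of the fetal and stress list, all tested, 2 rose and 0 fell, where 0.389% of all genes were called higher. Positive fold changes were found for 15, against 7749 of all 14915 genes. The median log2 fold change was 0.82, against 0.02 over all genes. Acta1 (ENSMUSG00000031972), the skeletal muscle actin re-expressed in loaded hearts, stood at 226.8, 206.9 and 118.6 CPM in sham and at 1506, 1273 and 2619 CPM in TAC libraries. Its log2 fold change was 3.29 ± 0.36 (edgeR adjusted p = 0.00873, up to 0.0804 with a library left out). The lowest TAC library was well above the highest sham library. Actc1 (ENSMUSG00000068614), the cardiac actin whose sequence is nearly the same, stood at -0.10 ± 0.20 (adjusted p = 0.804) and crossed 0 with library totals (0.02) and without TAC replicate 1 (0.07). Reads shared by such copies may be split between them, and how they were counted is not given. Nppb (ENSMUSG00000029019), the B-type natriuretic peptide, stood at 226.6, 239.0 and 213.5 CPM in sham and 489.5, 553.0 and 545.7 CPM in TAC libraries, which did not overlap. It rose 2.34-fold (log2 fold change 1.23 ± 0.16, adjusted p = 0.0197).

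The other classical members of that programme did not pass. Nppa, the atrial natriuretic peptide, stood at 60.6, 847 and 96.3 CPM in sham and 383, 244 and 556 CPM in TAC libraries, and its high sham value was in the library with atrial transcripts. Its log2 fold change was 0.24 ± 0.84 (edgeR adjusted p = 0.886), 2.33 without sham replicate 2 (adjusted p = 0.158) and below 0 without sham replicate 1 (-0.26) or 3 (-0.20) or TAC replicate 5 (-0.09). Myh7, the slow myosin heavy chain, stood at 516 to 664 CPM in sham and 380 to 629 CPM in TAC libraries (log2 fold change -0.14 ± 0.22), and Myh6, the adult fast form, at -0.31 ± 0.16 (adjusted p = 0.316). Stretch-responsive proteins of the sarcomere missed the threshold with all libraries and passed without WT TAC replicate 1. These were Ankrd1 at 1.68 (adjusted p = 0.0599) and then 1.93 (0.00564), Ankrd2 at 3.51 (0.0546) and then 3.91 (0.00191), and Fhl1 at 1.23 (0.129) and then 1.55 (0.00223). Fhl1 stood at 81.8 to 102 CPM in sham, at 106 CPM in TAC replicate 1 and at 326 and 216 CPM in TAC replicates 3 and 5. The stress cytokine Gdf15, too, was lowest in TAC replicate 1 among the TAC libraries, at 0.655 to 0.695 CPM in sham, 0.714 CPM in TAC replicate 1 and 3.54 and 6.02 CPM in the others. Without WT TAC replicate 1 the list had 9 members called higher, 0 lower and a median of 0.99, where 1.51% of all genes were called higher.

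Structural muscle genes held 1 call, where 0.389% of all genes were called higher. Tcap (ENSMUSG00000007877), telethonin, which caps titin at the Z-disc, stood at 356.8, 404.0 and 497.5 CPM in sham and 2572, 1628 and 1458 CPM in TAC libraries. The groups were far apart, and it rose 4.50-fold (log2 fold change 2.17 ± 0.26, edgeR adjusted p = 0.0144, up to 0.150 with a library left out). It was the call among 15 heart muscle identity genes, whose median log2 fold change was 0.07 (-0.01 without TAC replicate 1 and -0.05 without TAC replicate 3), and among 22 sarcomere and Z-disc genes, with a median of 0.08. The small heat shock protein Hspb1 (ENSMUSG00000004951), a chaperone of stressed muscle, stood at 102.7, 99.9 and 119.3 CPM in sham and 223.7, 308.1 and 200.01 CPM in TAC libraries. It rose by 1.18 ± 0.20 on the log2 scale (adjusted p = 0.0472). It was the 1 call of 18 heat shock genes, against 0.389% of all genes called higher. Its relatives Cryab at 0.69 (adjusted p = 0.108) and Hspb7 at 0.75 (adjusted p = 0.128) missed the threshold. Both passed without TAC replicate 1, Cryab at 0.71 (adjusted p = 0.0396) and Hspb7 at 0.92 (adjusted p = 0.0112).

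**Figure D3:**
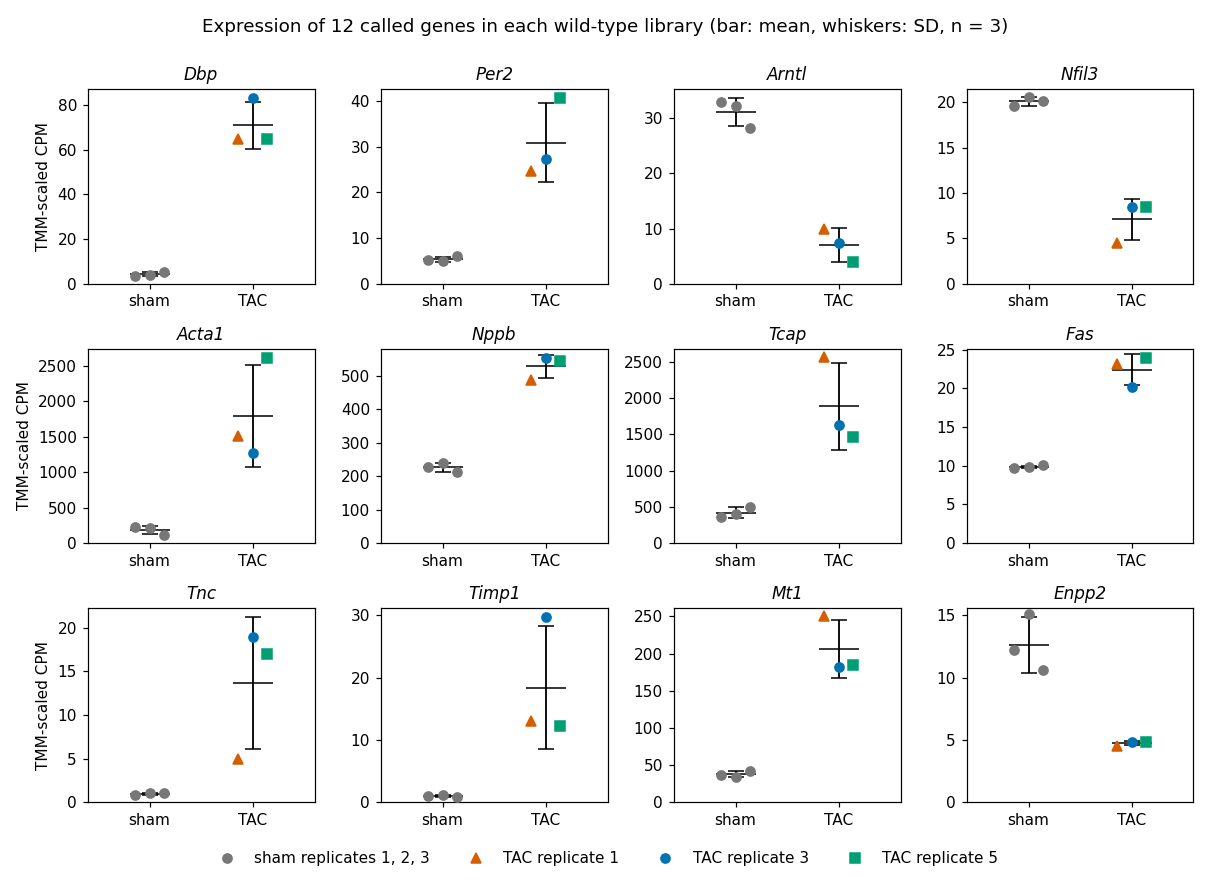
TMM-scaled CPM (vertical axes, from 0) of 12 called genes in each sham library (grey) and each TAC library (coloured symbols), with the mean as a bar and the SD as whiskers (n = 3). In each panel the sham and TAC libraries do not overlap; Arntl, Nfil3 and Enpp2 are lower after TAC and the others higher.

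The matrix genes that rose were a tenascin, a microfibril protein and protease inhibitors, while no collagen of the list was called and Col6a6, a collagen outside it, fell. Of 18 matricellular proteins, which sit in the matrix and signal to cells, 2 rose and 0 fell, where 0.389% of all genes were called higher. Their median log2 fold change was 1.13. Tnc (ENSMUSG00000028364), tenascin C, stood at 0.799, 1.02 and 1.01 CPM in sham and 4.95, 19.0 and 17.0 CPM in TAC libraries. TAC replicate 1 had the lowest TAC level, still above each sham library, and the log2 fold change was 3.84 ± 0.50 (edgeR adjusted p = 0.0184), or 4.24 without that replicate (adjusted p = 6.24e-06). Mfap5 (ENSMUSG00000030116), a microfibril glycoprotein, stood at 17.9, 19.9 and 15.9 CPM in sham and 74.6, 35.4 and 67.6 CPM in TAC libraries (log2 fold change 1.73 ± 0.26, adjusted p = 0.0304). Thbs1, a thrombospondin that activates TGF-beta, at 1.02 (adjusted p = 0.0875), and Ccn2, a growth factor-binding matrix protein, at 1.44 (adjusted p = 0.0666), missed the threshold.

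Of 25 tested cross-linkers, proteases and inhibitors, 3 rose and 0 fell, where 0.389% of all genes were called higher. Timp1 and Timp4 were among the 3. Timp1 (ENSMUSG00000001131), an inhibitor of metalloproteinases, stood at 0.959, 1.16 and 0.908 CPM in sham and 13.1, 29.7 and 12.3 CPM in TAC libraries. It rose 18.2-fold (log2 fold change 4.17 ± 0.40, edgeR adjusted p = 0.00587, up to 0.0683 with a library left out). Timp4 (ENSMUSG00000030317), the metalloproteinase inhibitor typical of heart, stood at 28.5, 19.0 and 27.3 CPM in sham and 122.0, 56.8 and 80.8 CPM in TAC libraries (log2 fold change 1.79 ± 0.28, adjusted p = 0.0354). The cross-linker Loxl2 stood at 1.07 (adjusted p = 0.0592), and at 1.13 without TAC replicate 1 (adjusted p = 0.0269).

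Collagen transcripts differed widely among the TAC libraries. Of 20 collagens 19 were tested, 0 were called in either direction and 2 had an unadjusted p under 0.05, where 21% of all genes tested did, with a median log2 fold change of 0.37. Col6a6, which is not in the list, fell from 9.37 to 10.3 CPM in sham to 4.59, 2.56 and 4.29 CPM (log2 fold change -1.35 ± 0.23, edgeR adjusted p = 0.0472). Without TAC replicate 1, Col5a3 of the list was called lower (-0.73, adjusted p = 0.0344), at 31.6 to 39.2 CPM in sham and 70.3, 19.4 and 22.0 CPM in TAC libraries. The fibrillar collagen gene Col1a1 stood at 60.0 to 65.9 CPM in sham and at 78.7, 63.2 and 143 CPM in TAC libraries, and Col3a1 at 157 to 187 CPM and at 248, 150 and 435 CPM. TAC replicate 5 was the highest for both and TAC replicate 3 lay inside or below the sham range. Postn, periostin of activated fibroblasts, had the same order at 85.7, 52.2 and 301 CPM after TAC, against 33.3 to 46.2 CPM in sham. Its log2 fold change of 1.89 ± 0.56 (edgeR adjusted p = 0.136) stood at 0.81 without TAC replicate 5. The matrix proteins Cilp, at 23.9, 14.8 and 70.2 CPM, and Thbs4, at 7.86, 12.3 and 35.5 CPM, were also highest in TAC replicate 5. The summed level of the 11 tested fibroblast markers was 1688 to 1974 CPM in sham and 1379 to 1756 CPM in TAC libraries, which overlapped, with 4 of the 11 positive. Gsn alone had 882 to 1032 CPM of this in sham and 681 to 722 CPM in TAC libraries. In bulk tissue fewer cells of a type and less RNA per cell cannot be told apart.

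Interferon-stimulated genes lay higher in WT TAC replicate 1 than in the other TAC libraries. All 35 tested members of the list of 36 had positive fold changes (median 0.95), against 7749 of all 14915 genes. Of the 35, 1 was called, where 0.389% of all genes were called higher. In TAC replicate 1, 35 of the 35 stood above the sham mean and 30 were over 2-fold above it, with a median difference of 1.83 in log2 CPM. In TAC replicate 3, 22 stood above and 1 was over 2-fold, with a median of 0.16. In TAC replicate 5 the counts were 33 and 9, with a median of 0.58, and TAC replicate 1 was the highest TAC library for each of the 35. Without it the list's median was 0.37, with 29 members positive. Irf7, the factor that amplifies interferon output, stood at 6.44 to 10.4 CPM in sham and at 53.1, 9.32 and 15.6 CPM in TAC libraries (log2 fold change 1.63, edgeR adjusted p = 0.165, and 0.56 without TAC replicate 1). The antiviral sensor Oas2 stood at 81.9 CPM in TAC replicate 1 and 24.1 and 29.6 CPM in the others, against 10.3 to 18.9 CPM in sham. The call was Ifi27l2a (ENSMUSG00000079017), an interferon-inducible protein, at 7.56, 8.66 and 9.43 CPM in sham and 46.8, 18.7 and 28.7 CPM in TAC libraries. Its groups did not overlap, and it passed with all libraries (log2 fold change 1.88 ± 0.30, adjusted p = 0.0399) and without TAC replicate 1 (1.46, adjusted p = 0.00511).

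**Figure D4:**
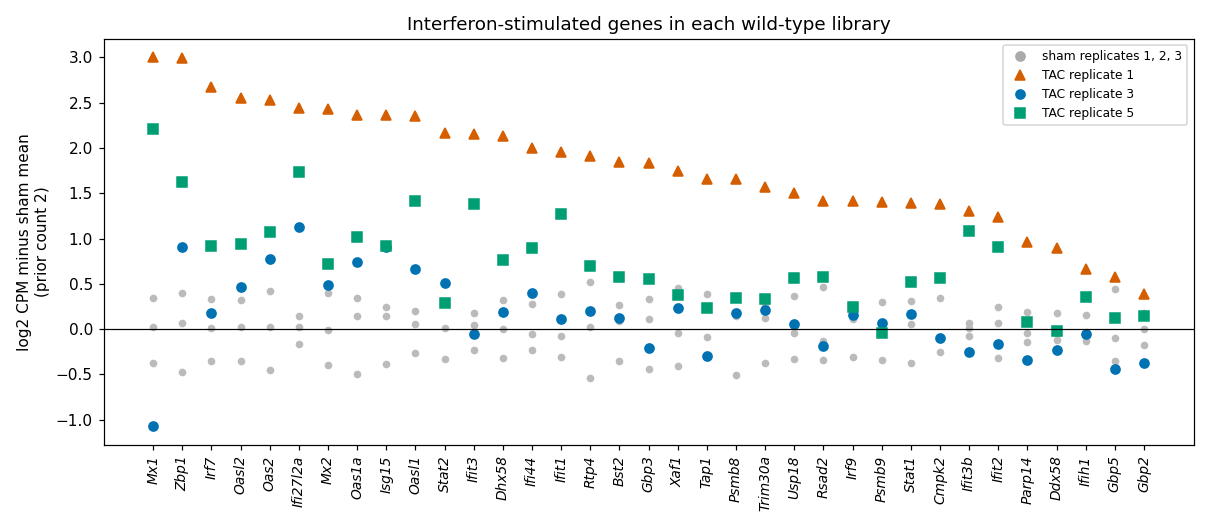
Log2 CPM of the 35 tested interferon-stimulated genes (horizontal axis, ordered by TAC replicate 1) minus the mean of the sham libraries (vertical axis), for each sham library (grey) and TAC library (coloured symbols). TAC replicate 1 (triangles) is the highest TAC library for all 35, with a median of 1.83, against 0.16 for TAC replicate 3 and 0.58 for TAC replicate 5.

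Macrophage markers had a higher sum in TAC replicates 1 and 5 than in replicate 3, and none of the 20 was called. Their summed level was 291.7 to 333.6 CPM in sham and 418.0, 322.2 and 534.0 CPM in TAC libraries, and 10 of the 20 had an unadjusted p under 0.05, against 21% of all genes. Single members did not all follow the sum. Itgam, the integrin CD11b of myeloid cells, stood at 2.27 to 2.50 CPM in sham and 4.44, 4.90 and 6.25 CPM in TAC libraries (log2 fold change 1.10 ± 0.22, edgeR adjusted p = 0.0630), and passed without TAC replicate 1 (adjusted p = 0.0233). Msr1 stood at 2.57 to 2.61 CPM in sham and 4.54, 4.96 and 4.46 CPM in TAC libraries. Adgre1 lay below the sham mean in each TAC library, with log2 CPM differences of -1.09, -0.87 and -0.26. Trem2, a lipid receptor of tissue macrophages, stood at 1.49 (adjusted p = 0.0986). It belongs to the monocyte-derived macrophage list, where 5 of 7 tested members had negative fold changes and the median was -0.40. The antigen presentation genes H2-Aa, H2-Ab1 and H2-Eb1 were low in TAC replicate 3 alone: H2-Aa stood at 38.7 to 52.2 CPM in sham, 42.7 and 42.3 CPM in TAC replicates 1 and 5 and 16.7 CPM in TAC replicate 3. Of 21 tested cytokines and chemokines, 1 rose, where 0.389% of all genes were called higher. Ccl9 (ENSMUSG00000019122), a chemokine of myeloid cells, stood at 6.76, 5.93 and 6.71 CPM in sham and 16.1, 18.6 and 21.0 CPM in TAC libraries (log2 fold change 1.52 ± 0.16, adjusted p = 0.00852). Its neighbour in family, Ccl6, stood at 1.06 (adjusted p = 0.0599), and passed without TAC replicate 1 (1.24, adjusted p = 0.00221). The myeloid membrane proteins Ms4a4a and Ms4a6d rose by 2.63 and 1.88 on the log2 scale (adjusted p = 0.0417 and 0.0282). Lcn2 (ENSMUSG00000026822), a siderophore-binding lipocalin, rose by 3.69 ± 0.59 (adjusted p = 0.0379), from 0.695 to 1.33 CPM in sham to 5.26, 22.9 and 7.64 CPM.

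Of genes of cell death and survival, the death receptor Fas and the TWEAK receptor Tnfrsf12a rose. Of 19 genes of the p53 and apoptosis list 2 rose and 0 fell, where 0.389% of all genes were called higher. The list's median log2 fold change was 0.60. Fas (ENSMUSG00000024778) stood at 9.75, 9.82 and 10.03 CPM in sham and 23.2, 20.2 and 23.9 CPM in TAC libraries. The spread within each group was small beside the gap between them (log2 fold change 1.18 ± 0.14, edgeR adjusted p = 0.0138). Tnfrsf12a (ENSMUSG00000023905) rose by 1.39 ± 0.20 (adjusted p = 0.0248), from 24.8 to 34.1 CPM in sham to 62.7 to 94.5 CPM after TAC. The cell cycle inhibitor Cdkn1a at 1.35 (adjusted p = 0.0599), the growth arrest gene Gadd45b at 1.87 (0.0592) and the pore-forming Bax at 1.15 (0.0928) missed the threshold.

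Among single genes of small-molecule pathways, Mt1 and Ptgds rose and Enpp2 fell. Mt1 (ENSMUSG00000031765), a metal-binding metallothionein, stood at 36.3, 34.6 and 42.1 CPM in sham and 250.6, 181.5 and 185.1 CPM in TAC libraries. Every TAC library was well above the sham range (log2 fold change 2.45 ± 0.19, edgeR adjusted p = 0.00338, up to 0.0634 with a library left out). It was the 1 call of 10 tested metallothionein and zinc transport genes, where 0.389% of all genes were called higher. Mt2, its relative, had 37 counts over the 6 libraries and was not tested. Whether any reads of Mt2 were counted for Mt1 is not known. Ptgds (ENSMUSG00000015090), a prostaglandin D synthase, stood at 113.5, 99.8 and 112.4 CPM in sham and 478.1, 448.6 and 574.3 CPM in TAC libraries (log2 fold change 2.20 ± 0.18, adjusted p = 0.00338). It was the 1 call of 15 tested prostaglandin genes, against the same 0.389% of all genes. Ptgis, the prostacyclin synthase, stood at 0.90 (adjusted p = 0.0812), and passed without TAC replicate 1 (0.93, adjusted p = 0.0396). Enpp2 (ENSMUSG00000022425), autotaxin, the secreted enzyme that makes lysophosphatidic acid, stood at 12.2, 15.1 and 10.6 CPM in sham and 4.54, 4.79 and 4.85 CPM in TAC libraries. The TAC libraries were close together and below each sham library (log2 fold change -1.42 ± 0.18, adjusted p = 0.0183). None of the 3 tested receptors of that lipid passed, Lpar1 at 0.27, Lpar4 at -0.20 and Lpar6 at 0.64.

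Genes outside the lists that rose included Serpinb1c, Angptl4, Map3k6, Tent5b and Lman1l. Serpinb1c (ENSMUSG00000079049), an intracellular serine protease inhibitor, stood at 0.160, 0 and 0.0504 CPM in sham and 2.40, 4.96 and 3.29 CPM in TAC libraries (log2 fold change 5.60 ± 0.64, edgeR adjusted p = 0.0104). Its sham level rests on few counts, so the size of the change depends on how they are modelled. Angptl4, an inhibitor of lipoprotein lipase, rose 4.45-fold, from 2.40 to 3.43 CPM in sham to 7.90 to 19.2 CPM after TAC (adjusted p = 0.0286). Map3k6, a stress kinase, rose by 2.44 ± 0.35 (adjusted p = 0.0274, and 0.0503 without TAC replicate 1). Tent5b, a poly(A) polymerase, and Lman1l also rose, by 3.95 and 2.44.

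The lower genes included membrane, matrix and signalling proteins. Mogat2, which makes diacylglycerol, stood at 1.38 to 2.04 CPM in sham and 0.167 to 0.327 CPM in TAC libraries (log2 fold change -2.77 ± 0.38, edgeR adjusted p = 0.0212). Adam19 (ENSMUSG00000011256), a membrane metalloprotease, stood at 55.5, 78.4 and 53.5 CPM in sham and 24.3, 20.4 and 19.2 CPM in TAC libraries, which did not overlap (log2 fold change -1.55 ± 0.19, adjusted p = 0.0144). Epha4, an ephrin receptor, stood at 51.6 to 79.8 CPM in sham and 15.2 to 25.3 CPM after TAC (adjusted p = 0.0350). Spon2, a matrix protein that binds microbial products, fell by 2.06 on the log2 scale, and Soga1 fell by 1.48 (adjusted p = 0.00852). The resistin-like protein Retnla stood at 3.80 to 4.63 CPM in sham and 0.948 to 1.73 CPM after TAC (adjusted p = 0.0416), and the C-type lectin Cd209f at 0.959 to 1.25 and 0.153 to 0.272 CPM (adjusted p = 0.0472). Penk, proenkephalin, fell by 1.08 (adjusted p = 0.0472). Aldh1l2, a mitochondrial folate enzyme, was called at -2.28 (adjusted p = 0.0498) and missed the threshold without TAC replicate 1 (-2.12, adjusted p = 0.0674).

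Leaving out WT TAC replicate 1 kept nearly all of the calls and added others. Of 15124 genes tested 410 were called, 2.71%. Of the 89 genes 3 were lost, Aldh1l2, Map3k6 and the provisional gene Gm47283. Genes called in this fit and not with all libraries included, as lower, the cytochrome P450 gene Cyp3a13 at -2.18 (edgeR adjusted p = 0.0190), the vasopressin receptor Avpr1a at -2.04 (0.0356) and Fam124b at -2.62 (0.00799). In each of these TAC replicate 1 lay nearer to the sham libraries than the other TAC libraries did, as for Fam124b at 2.55 to 3.73 CPM in sham and 1.17, 0.654 and 0.335 CPM in TAC libraries. As a description of that library with no test, among genes with a mean of 5 CPM or more in the TAC libraries, those that stood farthest above the other TAC libraries were the sodium-proton exchanger Slc9a5, the endothelial tight junction gene Cldn5, and Ddx60. Cldn5 stood at 14.4 to 21.0 CPM in sham, 60.8 CPM in TAC replicate 1 and 16.1 and 14.2 CPM in the others. Farthest below were Sync, a muscle intermediate filament partner, mt-Nd4l, and Pde7b, with the pyruvate dehydrogenase subunit Pdha1 at 120 CPM in TAC replicate 1, 446 and 479 CPM in the others and 396 to 653 CPM in sham. For Sync, Pde7b and Pdha1 sham replicate 3 was the lowest of the sham libraries.

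Lists of energy and excitation genes gave no call with all libraries. Of 25 ion channel and calcium handling genes 4 had positive fold changes, the median was -0.38, 0 were called and 6 had an unadjusted p under 0.05, a share near the 21% of all genes. The median difference from sham was -0.63 in TAC replicate 1 and -0.21 and -0.22 in the others. Gja1, the gap junction protein connexin 43, stood at 450 to 550 CPM in sham and 184, 414 and 292 CPM in TAC libraries (log2 fold change -0.79 ± 0.28, edgeR adjusted p = 0.172). The 21 citric acid cycle genes had a median of -0.22, and differences of -0.76, -0.09 and -0.03 in TAC replicates 1, 3 and 5. The 13 protein-coding genes of the mitochondrial genome had a median of -0.20, and 2 of them passed without TAC replicate 1: mt-Nd4l at -1.2 (adjusted p = 0.00223) and mt-Nd5 at -0.94 (adjusted p = 0.00739). mt-Nd5 stood at 27662 to 31565 CPM in sham and 7863, 14712 and 16744 CPM in TAC libraries. Nuclear respiratory chain genes lay the other way, with 24 of 30 positive, against 7749 of all 14915 genes, and a median of 0.24, 0 of them called. Pdk4, the kinase that shuts pyruvate dehydrogenase, stood at 135 to 174 CPM in sham and 251, 308 and 673 CPM in TAC libraries (log2 fold change 1.41, adjusted p = 0.105, and 1.66 with adjusted p = 0.0435 without TAC replicate 1).

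**Figure D5:**
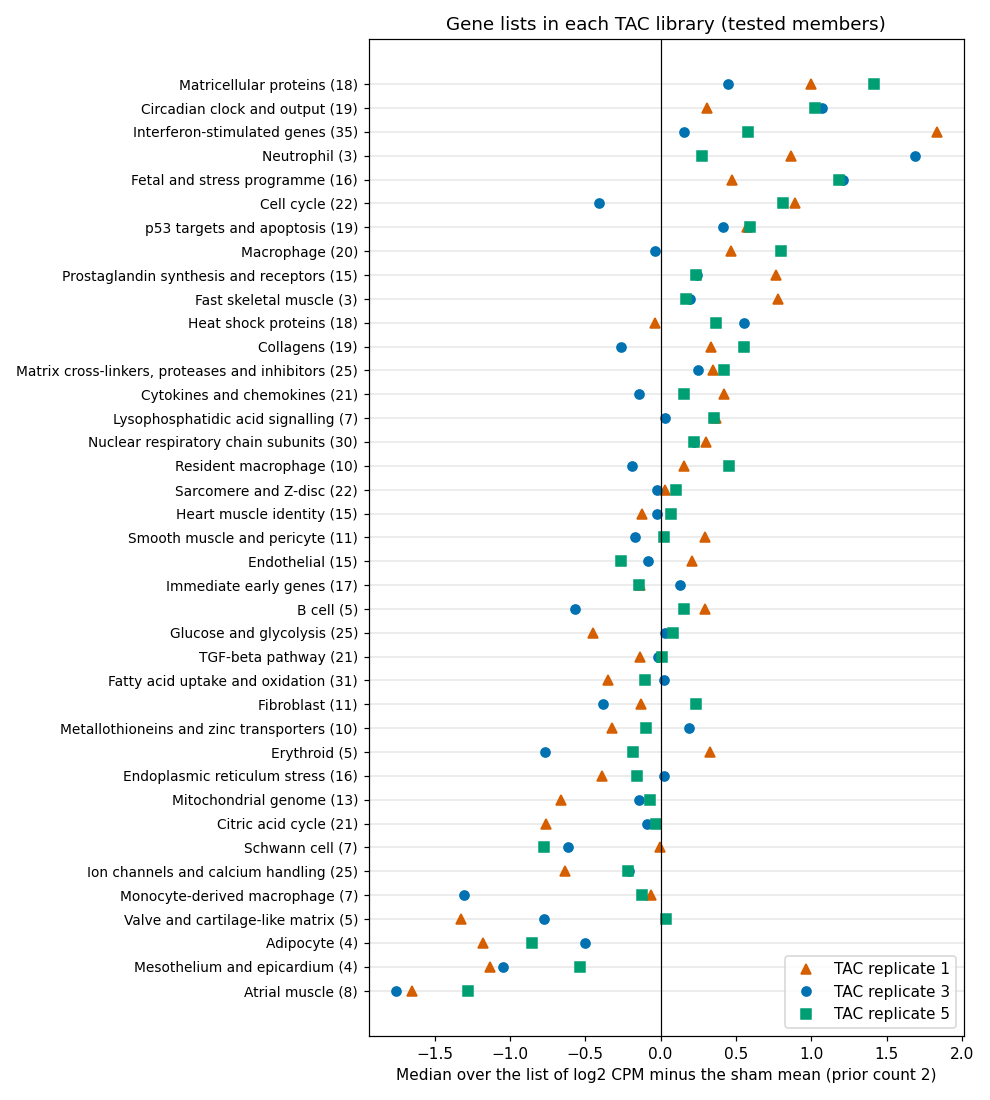
Median over the tested members of each list (rows, number tested in parentheses) of log2 CPM minus the sham mean (horizontal axis), for each TAC library (symbols). TAC replicate 1 stands highest for interferon-stimulated genes (1.83) and, of the pathway lists, lowest for citric acid cycle genes (-0.76), with the atrial, valve, adipocyte and mesothelial marker lists lower still; the matricellular and clock lists are above 0 in all 3 TAC libraries.

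Whether the calls differ between wild-type and Cd163-/- hearts was tested as an interaction, the TAC effect in Cd163-/- minus that in wild-type hearts. Of 15804 genes tested over the 12 libraries 0 were called (0%), with 1452 at an unadjusted p under 0.05, 36 of them among the 89. DESeq2 called 94 and limma-voom 5056. In Cd163-/- sham replicate 1 the mitochondrial genome made up 51% of counts. The other Cd163-/- sham libraries had 31.6 and 30.5%, and the Cd163-/- TAC libraries 44.0 to 51.3%. Without Cd163-/- sham replicate 1, singled out with earlier results of these data known, 1961 genes were called, 21 of them among the 89. The 89 were chosen for their wild-type difference, and the same wild-type libraries enter the interaction. Small p-values and signs opposite to the wild-type change are thus favoured among them in advance, so no conclusion is drawn from the 36 or the 21. Retnla stood at an interaction of 3.05 on the log2 scale (edgeR adjusted p = 0.0545) and 3.35 without Cd163-/- sham replicate 1 (adjusted p = 0.000738). Tnc stood at -3.92 (adjusted p = 0.137) and -3.35 (0.00877), and Acta1 at -2.91 (0.162) and -2.46 (0.00697). Dbp was not among the 21, while the clock genes Per3, Nr1d2 and Tef were, with positive values of 1.31, 1.32 and 0.87, against 0.31, 0.38 and 0.23 with all 12 libraries (adjusted p = 0.880, 0.854 and 0.890).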

How the data were processed

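RNA of heart tissue was made into poly(A)-selected libraries and read as 150 bp pairs, per the labels' protocols. The deposited table gives raw read counts per gene, not normalized, for the 12 samples, and HISAT2 is named in the submitters' processing notes. The counting program, genome build, annotation and use of strand are not stated there, so overlapping and antisense genes cannot be told apart. Of 55357 Ensembl identifiers 52081 had a symbol in GENCODE M21. Counts were tested in R 4.3.3 with edgeR 4.0.16 (TMM, filterByExpr by group, robust quasi-likelihood, Benjamini-Hochberg adjustment, threshold 0.05), on the 6 wild-type libraries and on all 12 for the interaction. The SE is the fold change over the root of F. Per-library differences use log2 CPM with a prior count of 2. The procedure was tested on simulated data. Replicate pairs differed by 13.7 to 100 times the counting variance, so none was merged.

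The 42 gene lists, 19 of them cell type markers, and the rule for named genes were chosen with earlier results of these data known. The rule takes the 15 largest changes called in each direction (group mean of 1 CPM or more, no overlap, no provisional symbol), called list members, each list's 4 members of smallest p, the 10 per direction without WT TAC replicate 1, and the 8 per direction that set that library apart. Some are not reported here. Members outside the rule are named as values of their list, and Angptl4, Col6a6, Ms4a6d and Penk were chosen after their values were seen. The alternatives were other scalings, DESeq2 1.42.0, limma-voom (limma 3.58.1), other filters, a fit that was not robust, a minimum change of 1.5-fold, a replicate block, each library left out, and fits with the Cd163-/- libraries.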

Additional observations from a re-analysis of the deposited data

How the results depend on the processing

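Of 58 higher and 31 lower calls, 89 in all, the count moved with the fit. It was 51 with library totals (42 higher, 9 lower), 812 with DESeq2 (400, 412), 814 with limma-voom (434, 380), 1687 without the low-count filter (885, 802) and 18 with a minimum change of 1.5-fold (16, 2). With DESeq2 size factors it was 91, with a filter at a mean of 1 CPM 73 and with the fit that was not robust 88. The 12-library fit called 5 (4, 1) and the fit without Cd163-/- sham replicate 1 called 1058 (550, 508). With 1 wild-type library left out the count ranged from 1 to 410, from 1 to 228 higher and from 0 to 182 lower, and the lowest were without sham replicates 2 and 3. Together with leaving out WT TAC replicate 1, chosen after the data were seen, there were 817 calls with DESeq2 (402, 415), 446 with limma-voom (268, 178), 385 with library totals (270, 115), 410 with DESeq2 size factors (233, 177) and 1595 without the filter (840, 755).

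Numbers 1 and 3 occur in both groups. The deviations of same-numbered libraries correlated at -0.17 and -0.189. Those of the other pairs ran from -0.342 to 0.422, the highest for sham replicate 3 with TAC replicate 1. The labels name no shared animal or day, so the numbers were not taken as pairs. The replicate block called 142 genes (83 higher, 59 lower), 55 of them among the 89, with 1 residual degree of freedom. The interaction called 7 genes with library totals, 94 with DESeq2, 5056 with limma-voom, 43 without the filter, and from 0 to 1961 with a library left out: 4 without WT TAC replicate 1, 1961 without Cd163-/- sham replicate 1 and 0 in the other fits.

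Of 92 named genes checked one by one, 3 crossed 0 and none of these was called. Myh7, at -0.14, stood at 0.0065 with library totals and 0.16 with the replicate block, and from -0.31 to 0.0397 with a library left out. Actc1, at -0.10, stood at 0.0197 with library totals and from -0.20 to 0.07 with a library left out. Nppa, at 0.24, ranged from -0.26 to 2.33 with a library left out, with -0.20 without sham replicate 3 and -0.09 without TAC replicate 5. The cause was not tested. Genes named outside the 92 were not checked in this way. Among them, Slc9a5 at 0.93 and Cldn5 at 0.82 stood at -0.05 and -0.20 without TAC replicate 1. Of 39 list medians 12 changed sign in some setting. Of 663 list values 35 moved by at least the SD of the list's median difference over the 3 TAC libraries. That SD includes TAC replicate 1, which widens it where that library stands apart.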

Other observations

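Other cell types of the heart gave no call with all libraries. Endothelial markers had 8 of 15 positive fold changes and a summed level of 1719 to 2368 CPM in sham and 3399, 2004 and 2052 CPM in TAC replicates 1, 3 and 5. Without TAC replicate 1, 4 of 15 were positive, and the median log2 fold change of 0.05 stood at -0.20. In that fit 2 were called lower, where 1.2% of all genes were. Within that list Kdr, the main receptor for vascular endothelial growth factor, stood at 250 to 346 CPM in sham and 192, 166 and 157 CPM in TAC libraries (log2 fold change -0.73, edgeR adjusted p = 0.114), and at -0.82 without TAC replicate 1 (adjusted p = 0.0407). The fatty acid carrier Fabp4 ran the other way, at 379 to 633 CPM and at 1589, 788 and 800 CPM. Smooth muscle and pericyte markers summed to 2430 to 2566 CPM in sham and 2779 to 3434 CPM after TAC, groups that did not overlap. Des, an intermediate filament gene that heart muscle also expresses, was left out after the data were seen, and the other 10 tested markers summed to 1293 to 1379 CPM and 1153 to 1361 CPM, which overlapped. Des stood at 0.62 (adjusted p = 0.148) and passed without TAC replicate 1 (0.76, adjusted p = 0.0277). Atrial markers summed to 67.2, 1094 and 126 CPM in sham and 47.6 to 60.9 CPM after TAC, and their median log2 fold change of -2.13 stood at -0.61 without sham replicate 2.

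Growth control genes split. The fetal and stress list is described above, and among 17 immediate early genes 0 were called with all libraries, with 4 at an unadjusted p under 0.05, a share near the 21% of all genes. The transcription factor Myc stood at 1.65 to 1.90 CPM in sham and 2.81, 4.41 and 9.37 CPM in TAC libraries, and Nr4a3 at 1.11 to 1.44 and 1.94, 4.68 and 11.1 CPM. Both passed without TAC replicate 1 (adjusted p = 0.0142 and 0.00893). Fos had 2.24, 18.5 and 15.5 CPM in sham and 2.40 to 4.74 CPM after TAC, and was called lower without sham replicate 1. Of 22 tested cell cycle genes 17 were positive, against 7749 of all 14915 genes, and 0 were called. The members of smallest p were negative, Cenpf at -1.46 (edgeR adjusted p = 0.0592) and Ccnd1 at -0.71 (adjusted p = 0.133). The groups did not overlap for these 2 and for 1 positive member. The list's median difference was 0.89 in TAC replicate 1, -0.41 in replicate 3 and 0.81 in replicate 5. In the TGF-beta pathway, of 21 genes with 0 called, Ltbp1, which stores the latent factor in matrix, stood at -0.96 (adjusted p = 0.0526), and Ltbp2 at 1.76 (adjusted p = 0.126), with 10.2, 4.85 and 23.8 CPM in the TAC libraries. Without TAC replicate 1, Ltbp1 passed (-0.89, edgeR adjusted p = 0.0233). It was the 1 member called in that fit, where 1.2% of all genes were called lower.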
